A study of Mus musculus with 8 samples.

Results

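The genes described here are 8 transcription factors of effector, tissue-resident and exhausted CD8 T cells, namely Tox, Tox2, Prdm1, Bhlhe40, Tbx21, Eomes, Zeb2 and Runx3. They were taken by gene symbol from tables of 23284 distinct symbols, and each symbol had a row in all 8 tables. Of the 8 genes, 7 reached 1 FPKM (fragments scaled by transcript length and by the size of the library) in all 8 libraries. Tox2 reached it in 1 library and so fell under the filter used for testing, which asked for at least 1 FPKM in at least 2 libraries.

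RNA had been sequenced from CD8+ T cells that bind the AH1 tetramer, a reagent that stains T cells recognising a peptide of an endogenous retroviral envelope protein carried by some BALB/c tumour lines. The 4 groups were Cd69-/- term diff, wild type term diff, Cd69-/- stem-like and wild type stem-like cells, with 2 libraries in each, all from BALB/c mice and all sorted live. Cd69 encodes a surface receptor of activated and tissue-resident lymphocytes that holds back the egress receptor S1PR1. The labels name the subsets only as stem-like and term diff, and they do not give the tumour, the sort gates, or the sex, age and number of mice. They also do not say whether libraries came from separate mice, so p-values measure the spread between these libraries, which may be partly technical.

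In tumours and in chronic infection, CD8 T cells that keep meeting their antigen are maintained by a self-renewing stem-like pool that gives rise to short-lived differentiated cells. The factor TCF-1, encoded by Tcf7, holds the stem-like state. The T-box factors T-bet (Tbx21) and Eomesodermin (Eomes) recognise the same core DNA sequence and have partly shared and partly opposed roles in effector, memory and exhausted cells. Blimp-1 (Prdm1) represses memory and homing genes and is raised in differentiated cells. Zeb2 acts with T-bet in terminal effector differentiation, and Runx3 keeps CD8 lineage identity and supports cytotoxic and resident programmes. Tox and Tox2 are HMG-box proteins that establish the exhausted chromatin state, and Bhlhe40 is a basic helix-loop-helix repressor that supports mitochondrial function in resident and exhausted cells.

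Term diff cells had more Prdm1 and Tbx21 transcript and less Eomes and Zeb2 transcript than stem-like cells, and no difference passed the test for Tox, Runx3 and Bhlhe40. Averaged over both genotypes, Prdm1 was 7.26 FPKM in term diff cells and 1.80 FPKM in stem-like cells, and Tbx21 was 47.5 FPKM in term diff cells and 26.4 FPKM in stem-like cells. Eomes averaged 2.47 FPKM in term diff cells and 5.67 FPKM in stem-like cells, and Zeb2 averaged 4.64 FPKM in term diff cells and 6.68 FPKM in stem-like cells. Between genotypes no factor passed the test in either subset. Tox was the only one of the 7 tested factors with all 4 Cd69-/- libraries below all 4 wild type libraries, and no factor had the reverse. Of all genes, 3.07% had no overlap in either direction, and the Tox difference averaged over subsets did not pass the test (limma adjusted p = 0.165).

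Promoter sequence is shown for the 3 factors with the largest subset differences, the pair that was higher in term diff cells and Eomes, which was lower. Each run holds the 250 bases before the start site annotated by RefSeq on GRCm38.p6, written along the strand of the gene. Capitals mark a match to any of 6 short motifs searched on both strands, and a match is a description of the letters, not a bound site.
Prdm1, minus strand, chr10:44458749-44458998: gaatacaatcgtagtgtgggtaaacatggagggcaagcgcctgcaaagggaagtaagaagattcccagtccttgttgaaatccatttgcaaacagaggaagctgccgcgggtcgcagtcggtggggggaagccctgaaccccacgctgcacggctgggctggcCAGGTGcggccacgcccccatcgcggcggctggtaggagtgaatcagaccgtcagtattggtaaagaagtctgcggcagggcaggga
Tbx21, minus strand, chr11:97115332-97115581: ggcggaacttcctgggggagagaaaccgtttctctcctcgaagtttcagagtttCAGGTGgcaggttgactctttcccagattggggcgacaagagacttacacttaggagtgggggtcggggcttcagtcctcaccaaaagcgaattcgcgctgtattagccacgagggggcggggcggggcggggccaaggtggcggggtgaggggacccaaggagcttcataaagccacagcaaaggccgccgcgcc
Eomes, plus strand, chr9:118477939-118478188: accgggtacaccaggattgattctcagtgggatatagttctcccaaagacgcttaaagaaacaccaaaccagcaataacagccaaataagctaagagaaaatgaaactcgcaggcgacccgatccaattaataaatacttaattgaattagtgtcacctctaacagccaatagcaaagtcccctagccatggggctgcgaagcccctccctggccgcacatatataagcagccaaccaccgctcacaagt
The motifs were AGGTGT for T-box factors, TGTGGT for Runx factors, CACGTG for the E-box of Bhlhe40, CACCTG for the E-box of Zeb factors, GAAAGT for Blimp-1 and CTTTGA for TCF and LEF factors, and no motif overlaps another in these runs. The Prdm1 window held a single match, CACCTG read on the opposite strand as CAGGTG, 87 bases before the start. The Tbx21 window also held a single match, to the same motif on the opposite strand, 196 bases before the start. The Eomes window held a match to none of the 6 motifs. CACCTG occurred in 3 of the 6 members' windows (Prdm1, Tbx21 and Runx3), against 17.2% of all 32851 windows. AGGTGT occurred in 11.8%, TGTGGT in 14.0%, CACGTG in 6.02%, GAAAGT in 12.3% and CTTTGA in 13.8% of all windows. GC content was 59.2% for Prdm1, 60.8% for Tbx21 and 46.4% for Eomes, and the median of all windows was 52.4%.

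The libraries were alike in depth and differed in the share of small RNA. The width of the deposited confidence limits implied 2055014 to 2588964 fragments per library, a value that covers counting error only and is approximate, and 8911 to 9225 genes per library reached 1 FPKM. Small RNA rows held 54.9% and 62.4% of the FPKM sum in the wild type term diff and wild type stem-like libraries numbered 2, against 77.1% to 83.9% in the other 6 libraries. Cd69 read 2.21 to 3.69 FPKM in Cd69-/- libraries and 10.4 to 23.45 FPKM in wild type libraries. Tcf7 read 0.228 to 0.755 FPKM in term diff libraries and 40.6 to 64.2 FPKM in stem-like libraries, and Havcr2, which encodes the inhibitory receptor TIM-3, read 23.35 to 39.75 FPKM in term diff libraries and 0.847 to 2.29 FPKM in stem-like libraries. The 8 CD8 T cell marker genes, with none at 0, summed to 1320 to 1480 FPKM in Cd69-/- term diff, 983 to 1050 FPKM in wild type term diff, 1170 to 1210 FPKM in Cd69-/- stem-like and 991 to 1150 FPKM in wild type stem-like libraries. In these bulk samples, fewer cells that express a gene and less RNA per cell cannot be told apart.

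**Figure D1:**
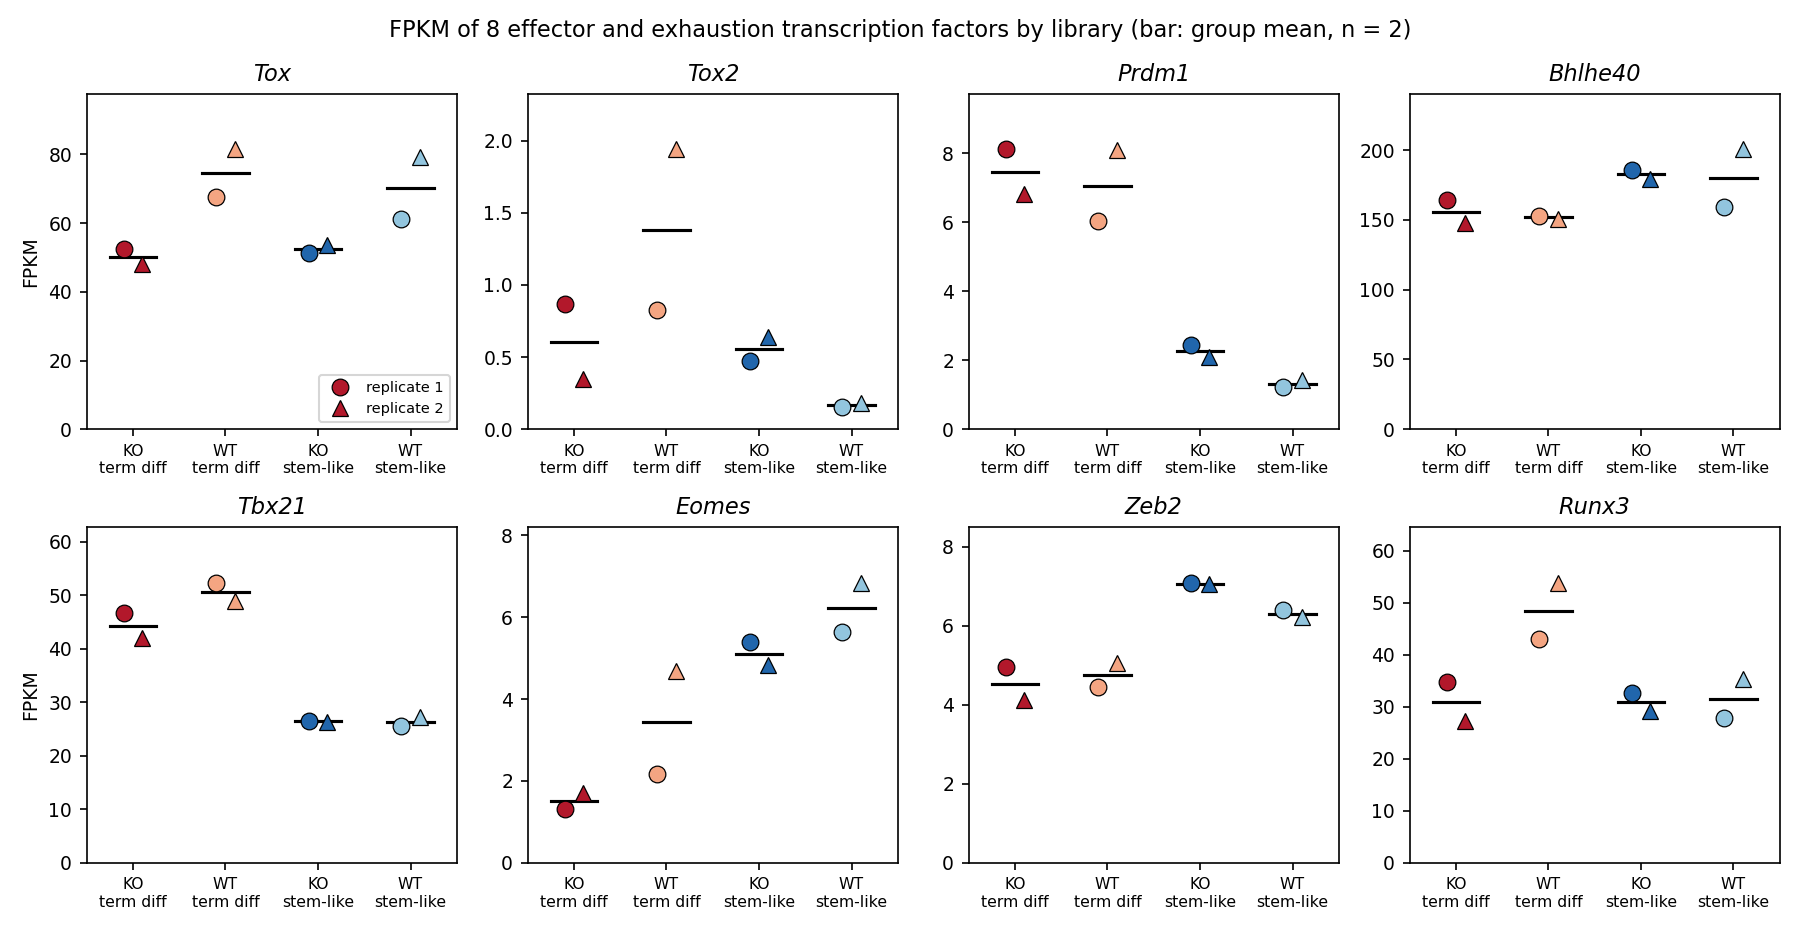
FPKM of each factor on the y axis (linear, from 0) for the 4 groups on the x axis, with circles for replicate 1, triangles for replicate 2 and a bar at the mean of 2 libraries. Prdm1 and Tbx21 sit higher in term diff libraries, Eomes and Zeb2 sit higher in stem-like libraries, and Tox sits lower in Cd69-/- libraries of both subsets; KO stands for Cd69-/- and WT for wild type.

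Levels of the factors spanned more than their changes between groups. FPKM is scaled by transcript length, so levels can be set beside each other within a library. In Cd69-/- term diff cells the order of mean levels was Bhlhe40 at 156 FPKM, Tox at 50.25 FPKM, Tbx21 at 44.3 FPKM, Runx3 at 31.0 FPKM, Prdm1 at 7.46 FPKM, Zeb2 at 4.53 FPKM, Eomes at 1.51 FPKM and Tox2 at 0.606 FPKM. No neighbours in that order overlapped between libraries. Wild type term diff cells had the same order, with Bhlhe40 at 152 FPKM and Tox at 74.5 FPKM, and there Tbx21 overlapped Runx3 and Zeb2 overlapped Eomes. In Cd69-/- stem-like cells Runx3 at 30.9 FPKM stood above Tbx21 at 26.4 FPKM, and Zeb2 at 7.06 FPKM and Eomes at 5.11 FPKM stood above Prdm1 at 2.27 FPKM. Wild type stem-like cells had that order too, with Zeb2 at 6.305 FPKM and Eomes at 6.235 FPKM overlapping, and Prdm1 at 1.32 FPKM below both. Prdm1 thus stood above Zeb2 and Eomes in term diff cells and below both in stem-like cells, and Tbx21 and Runx3 exchanged places between the subsets.

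Prdm1 (chr10:44437175-44458687 in mm10, minus strand), which encodes the repressor Blimp-1, rose in term diff cells of both genotypes. In Cd69-/- libraries Prdm1 read 8.11 and 6.81 FPKM in term diff, against 2.45 and 2.10 FPKM in stem-like. In wild type libraries Prdm1 read 6.03 and 8.08 FPKM in term diff, against 1.22 and 1.43 FPKM in stem-like. Every term diff library was above every stem-like library, and the lowest stem-like values were those of wild type. The ratio of mean FPKM was 3.28 in Cd69-/- and 5.33 in wild type. On the log2(FPKM + 1) scale, which understates the change of low genes, the difference was 1.37 ± 0.16 in Cd69-/- (SE, n = 2 and 2, limma adjusted p = 0.00191) and 1.78 ± 0.16 in wild type (limma adjusted p = 0.000448). Averaged over genotypes Prdm1 differed by 1.58 ± 0.11 (limma adjusted p = 6.35e-05), and the call held in all 21 alternatives run, with differences of 0.85 to 1.99. The stem-like wild type values rest on 52 and 53 implied fragments and the term diff values on 258 to 358.

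Tbx21 (chr11:97098007-97115331, minus strand), which encodes T-bet, the factor that drives effector differentiation and interferon gamma production, rose in term diff cells of both genotypes. Tbx21 read 46.6 and 42.0 FPKM in Cd69-/- term diff and 52.3 and 49.0 FPKM in wild type term diff libraries. It read 26.5 and 26.3 FPKM in Cd69-/- stem-like and 25.6 and 27.15 FPKM in wild type stem-like libraries. The 4 stem-like libraries lay within a narrow band, and all 4 term diff libraries were above them. The difference was 0.72 ± 0.12 in Cd69-/- (SE, limma adjusted p = 0.00815) and 0.92 ± 0.12 in wild type (limma adjusted p = 0.00222). The ratio of mean FPKM was 1.68 in Cd69-/- and 1.92 in wild type. The Cd69-/- call ended without Cd69-/- stem-like replicate 1 (limma adjusted p = 0.0667), without Cd69-/- stem-like replicate 2 (0.0541) or without Cd69-/- term diff replicate 1 (0.0576), each with the direction kept. Averaged over genotypes Tbx21 differed by 0.82 ± 0.08 (limma adjusted p = 0.000352).

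Eomes (chr9:118478189-118486132, plus strand), the other T-box factor, known for its part in memory and in progenitor and exhausted CD8 cells, was lower in term diff cells. Eomes read 1.32 and 1.71 FPKM in Cd69-/- term diff, against 5.39 and 4.82 FPKM in Cd69-/- stem-like libraries. It read 2.18 and 4.68 FPKM in wild type term diff, against 5.63 and 6.84 FPKM in wild type stem-like libraries. All 4 term diff libraries were below all 4 stem-like libraries, and wild type term diff replicate 2 lay nearest to the stem-like range. Averaged over genotypes Eomes fell by 1.02 ± 0.18 on the log2(FPKM + 1) scale (SE, limma adjusted p = 0.00495). Within Cd69-/- the difference was -1.28 ± 0.25 (limma adjusted p = 0.0168), and that call ended without any 1 of the 4 Cd69-/- libraries (limma adjusted p of 0.062 to 0.108) and with no filter on low genes (0.0795). Within wild type the difference was -0.76 ± 0.25 and did not pass the test (limma adjusted p = 0.0887), and that value rests on which wild type term diff library is used. It was -1.18 without wild type term diff replicate 2 (limma adjusted p = 0.0131) and -0.34 without wild type term diff replicate 1, which did not pass the test. Implied fragments were 37 to 44 in Cd69-/- term diff, 64 to 138 in wild type term diff and 132 to 163 in stem-like libraries. The antisense gene Gm33460 overlaps 574 bases of Eomes, and since the strand setting of the counting is not given in the sources used here, reads of the pair cannot be told apart.

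Zeb2 (chr2:44983634-45113279, minus strand), a zinc finger repressor that acts with T-bet in terminal effector cells, was lower in term diff cells. Zeb2 read 4.96 and 4.11 FPKM in Cd69-/- term diff, against 7.08 and 7.04 FPKM in Cd69-/- stem-like libraries. It read 4.44 and 5.05 FPKM in wild type term diff, against 6.38 and 6.23 FPKM in wild type stem-like libraries. The term diff and stem-like libraries did not overlap, and the direction was opposite to that of Tbx21 in both genotypes. Averaged over genotypes Zeb2 fell by 0.45 ± 0.09 on the log2(FPKM + 1) scale (SE, limma adjusted p = 0.00914). Within Cd69-/- the difference was -0.55 ± 0.13 (limma adjusted p = 0.0319), and that call ended without any 1 of the 4 Cd69-/- libraries (limma adjusted p of 0.0525 to 0.168), without both wild type libraries numbered 2 (0.0567), with no filter (0.0711) and with the replicate number as a block (0.0553). Within wild type the difference was -0.35 ± 0.13 (limma adjusted p = 0.111), and it passed the test after median-of-ratios scaling (-0.42, limma adjusted p = 0.0339) and after quantile normalization (-0.41, limma adjusted p = 0.0366). The antisense transcript Zeb2os overlaps 2573 bases of the gene.

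Of the 7 factors tested, Prdm1 and Tbx21 were called higher and Eomes and Zeb2 lower in term diff cells averaged over genotypes, where 20.5% of all 9782 genes were called. In Cd69-/- cells the same 4 genes were called, against 9.45% of all genes, and in wild type cells Prdm1 and Tbx21 were called, against 13.1%. Libraries of the 2 subsets did not overlap for 4 of the 7 factors over both genotypes together (21.9% of all genes), for 5 within Cd69-/- (56.8%) and for 6 within wild type (55.2%). A call in 1 genotype and not in the other does not show that the genotypes differ, and the interaction, given with the genotype comparison, was called for none of the 7.

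The shift in T-box factors can be read within each library, where the FPKM ratio of Tbx21 to Eomes does not depend on the scaling of the library. That ratio was 35.4 and 24.6 in Cd69-/- term diff and 24 and 10.5 in wild type term diff libraries. It was 4.92 and 5.46 in Cd69-/- stem-like and 4.55 and 3.97 in wild type stem-like libraries. All 4 term diff libraries thus had a larger excess of Tbx21 over Eomes than any stem-like library, and wild type term diff replicate 2 had the smallest excess of the term diff libraries. Prdm1 stood above Eomes in every term diff library, by 1.97 and 1.53 in Cd69-/- and by 1.15 and 0.68 in wild type on the log2(FPKM + 1) scale. It stood below Eomes in every stem-like library, by -0.89 and -0.91 in Cd69-/- and by -1.58 and -1.69 in wild type. Tox was above Tbx21 in all 8 libraries, by 0.16 and 0.19 in Cd69-/- term diff, 0.36 and 0.72 in wild type term diff, 0.92 and 1.00 in Cd69-/- stem-like and 1.23 and 1.51 in wild type stem-like. In Cd69-/- term diff libraries the pair were therefore nearly level. These balances were chosen to describe the members and carry no test.

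**Figure D2:**
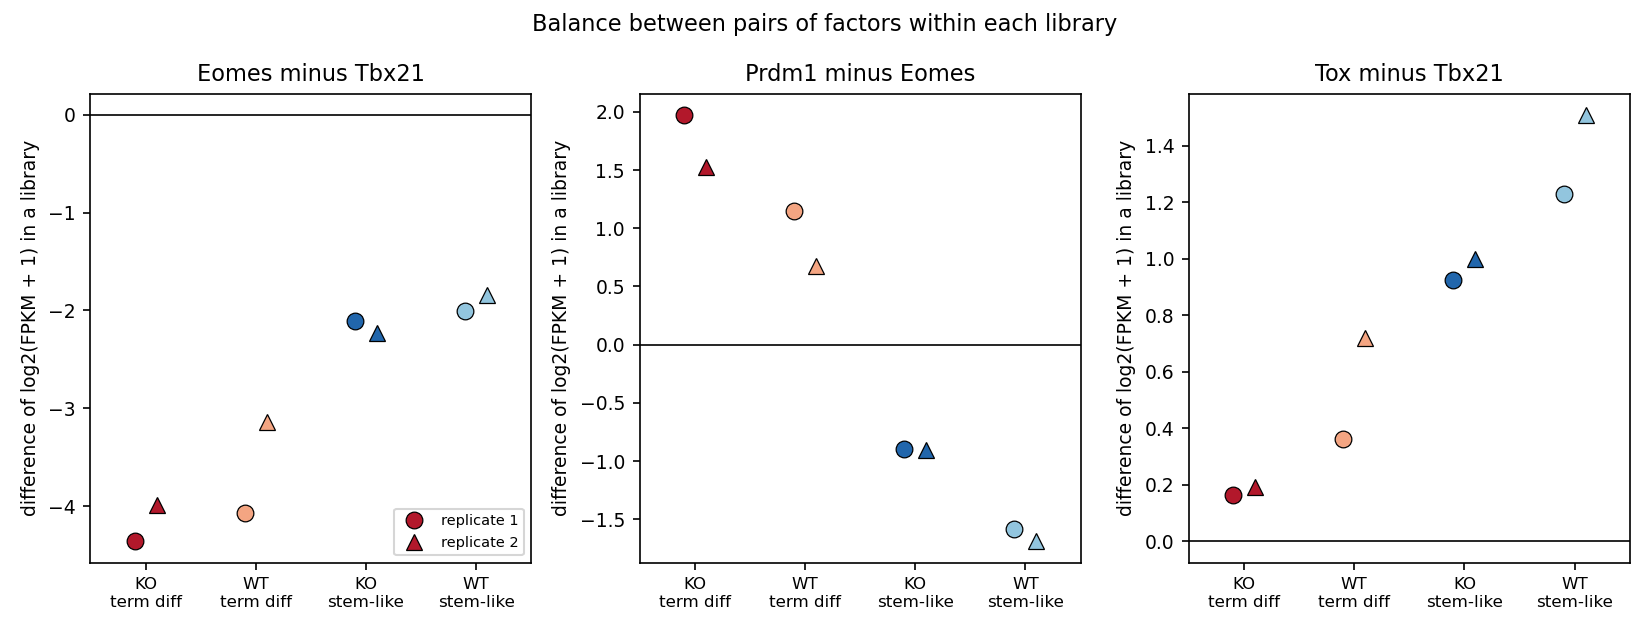
Difference of log2(FPKM + 1) between 2 factors within a library (y axis) for the 4 groups (x axis), for Eomes minus Tbx21, Prdm1 minus Eomes and Tox minus Tbx21, with circles for replicate 1 and triangles for replicate 2. Prdm1 minus Eomes lies above 0 in the 4 term diff libraries and below 0 in the 4 stem-like libraries, while Tox minus Tbx21 lies above 0 in all 8.

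Tox (chr4:6687386-6990723, minus strand), an HMG-box factor required to form exhausted CD8 cells, did not differ detectably between subsets. It is overlapped by the antisense gene Gm11802. Tox read 52.3 and 48.2 FPKM in Cd69-/- term diff, against 51.2 and 53.6 FPKM in Cd69-/- stem-like libraries. It read 67.6 and 81.4 FPKM in wild type term diff, against 61.3 and 79.1 FPKM in wild type stem-like libraries. The subsets overlapped in each genotype. Averaged over genotypes the subset difference was 0.02 ± 0.12 on the log2(FPKM + 1) scale (SE, limma adjusted p = 0.944), with a 95% interval of -0.25 to 0.28. With 983 to 1966 implied fragments per library, Tox is among the more deeply covered factors here.

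Tox2 (chr2:163225454-163323102, plus strand), a relative of Tox that acts with it in exhausted cells, was close to the limit of detection. Tox2 read 0.865 and 0.347 FPKM in Cd69-/- term diff and 0.828 and 1.94 FPKM in wild type term diff libraries. It read 0.474 and 0.642 FPKM in Cd69-/- stem-like and 0.157 and 0.181 FPKM in wild type stem-like libraries. The wild type stem-like libraries were the lowest and wild type term diff replicate 2 was the highest, on 2 to 26 implied fragments in all. In a fit with no filter, the difference between term diff and stem-like was 0.03 ± 0.26 in Cd69-/- (limma adjusted p = 1) and 0.99 ± 0.26 in wild type (limma adjusted p = 0.12), and the interaction was -0.96 ± 0.37 (limma adjusted p = 0.643). An exact permutation test of the 4 term diff against the 4 stem-like libraries gave p = 0.0857 (2-sided, where 0.0286 is the smallest that 70 splits allow).

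Bhlhe40 (chr6:108660629-108666925, plus strand) had the highest level of the 8 in every library and moved least between the lowest and the highest of them, by a ratio of 1.36. The antisense gene 0610040F04Rik overlaps 306 of its bases. Bhlhe40 read 164 and 148 FPKM in Cd69-/- term diff, against 186 and 179 FPKM in Cd69-/- stem-like libraries. It read 153 and 151 FPKM in wild type term diff, against 159 and 200.5 FPKM in wild type stem-like libraries. Within each genotype the term diff libraries were below the stem-like libraries, and across genotypes they overlapped. The difference was -0.23 ± 0.18 in Cd69-/- (SE, limma adjusted p = 0.467) and -0.23 ± 0.18 in wild type (limma adjusted p = 0.436), neither of which passed the test.

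Runx3 (chr4:135120645-135177990, plus strand), a Runt-domain factor of CD8 lineage identity and of cytotoxic and resident cells, stood higher in the wild type term diff libraries than in the other 6. The antisense gene Gm16224 overlaps 865 of its bases. Runx3 read 34.7 and 27.2 FPKM in Cd69-/- term diff, against 32.7 and 29.2 FPKM in Cd69-/- stem-like libraries. It read 43.1 and 53.8 FPKM in wild type term diff, against 27.7 and 35.2 FPKM in wild type stem-like libraries. Only the wild type libraries were apart by subset. The difference in wild type was 0.61 ± 0.18 (SE, limma adjusted p = 0.0656), which passed the test with a robust prior alone (limma adjusted p = 0.0274). In Cd69-/- it was -0.01 ± 0.18 (limma adjusted p = 0.987).

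**Figure D3:**
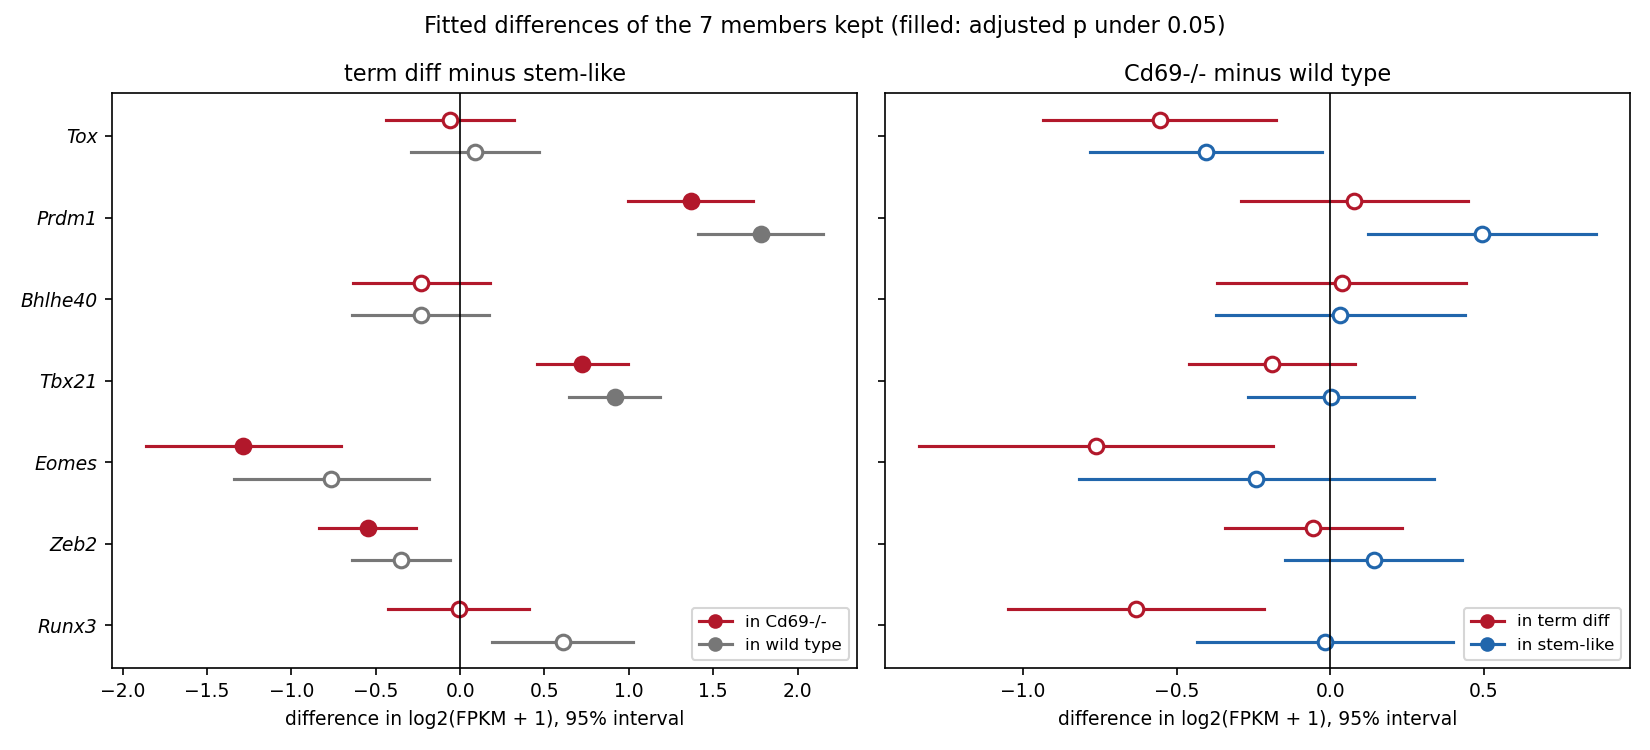
Difference in log2(FPKM + 1) with its 95% interval (x axis) for the 7 factors tested (y axis), term diff minus stem-like on the left and Cd69-/- minus wild type on the right, with filled points where the limma adjusted p was under 0.05. Filled points on the left are Prdm1 and Tbx21 in both genotypes and Eomes and Zeb2 in Cd69-/-, and no point on the right is filled.

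The comparison of Cd69-/- with wild type cells addressed whether loss of CD69 goes with altered levels of these factors. None of the 7 was called in stem-like cells (0.153% of all genes called), in term diff cells (0.194%), averaged over subsets (0.542%) or for the interaction (0.0307%). At an unadjusted limma p under 0.05, the counts were 2 of 7 in stem-like cells (7.26% of all genes), 3 of 7 in term diff cells (15.1%), 4 of 7 averaged over subsets (12.4%) and 1 of 7 for the interaction (9.09%). The alternatives run, 21 or 22 for each comparison, also called 0 members there.

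Tox differed between Cd69-/- and wild type by -0.55 ± 0.17 in term diff cells (SE, limma adjusted p = 0.225) and by -0.41 ± 0.17 in stem-like cells (limma adjusted p = 0.65) on the log2(FPKM + 1) scale, and neither passed the test. Averaged over subsets the difference was -0.48 ± 0.12 (limma adjusted p = 0.165), with a 95% interval of -0.75 to -0.21. Tox was the single factor whose 4 Cd69-/- libraries and 4 wild type libraries did not overlap, a pattern seen in 3.07% of all genes. An exact permutation test of these 4 against 4 libraries gave p = 0.0286 (2-sided), the smallest that 70 splits allow, among 16 such tests that were not adjusted. Libraries without overlap always give this smallest p, so it restates the lack of overlap and is not separate support. The direction was kept in all 21 alternatives run, with limma adjusted p of 0.0639 to 0.485. The wild type libraries numbered 2, which had the smaller share of small RNA, gave the highest Tox values, 81.4 FPKM in term diff and 79.1 FPKM in stem-like. Without both of them the difference was -0.32 (limma adjusted p = 0.485), and the part of small RNA in the result was not tested.

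Runx3 and Eomes read lower in Cd69-/- than in wild type term diff cells, without passing the test. For Runx3 the difference was -0.63 ± 0.18 (SE, limma adjusted p = 0.213) in term diff and -0.02 ± 0.18 in stem-like (limma adjusted p = 0.993). The interaction takes the stem-like genotype difference away from the term diff one, and it was -0.61 ± 0.26 for Runx3 (limma adjusted p = 0.542). For Eomes the difference was -0.76 ± 0.25 in term diff (limma adjusted p = 0.258) and -0.24 ± 0.25 in stem-like (limma adjusted p = 0.865), with an interaction of -0.52 ± 0.36 (limma adjusted p = 0.619). In term diff cells Tox, Runx3, Eomes and Tbx21 all had Cd69-/- libraries below wild type libraries without overlap, and no factor had the reverse. Of all genes, 28.1% had Cd69-/- term diff libraries below and 19.7% above without overlap, 47.8% in all, so a lack of overlap is common at 2 libraries a group. In stem-like cells 4 of the 7 factors did not overlap between genotypes, 2 higher and 2 lower in Cd69-/-, against 37.8% of all genes. For Tbx21 the term diff difference was -0.19 ± 0.12 (limma adjusted p = 0.471). Runx3 and Eomes were also highest in the wild type term diff library numbered 2 among term diff libraries. Without both wild type libraries numbered 2, the term diff difference for Eomes was -0.34 (limma adjusted p = 0.729) and that for Runx3 was -0.475 (limma adjusted p = 0.656). The difference averaged over subsets was -0.16 for Runx3 and -0.23 for Eomes without those libraries, against -0.32 for Runx3 and -0.50 for Eomes with them.

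Prdm1 read higher in Cd69-/- stem-like cells, at 2.45 and 2.10 FPKM, against 1.22 and 1.43 FPKM in wild type stem-like cells. The difference was 0.49 ± 0.16 (SE, limma adjusted p = 0.553) and did not pass the test, and in term diff cells it was 0.08 (limma adjusted p = 0.845). The interaction for Prdm1 was -0.42 ± 0.23 (limma adjusted p = 0.562). Zeb2 read higher in Cd69-/- stem-like cells by 0.14 (limma adjusted p = 0.842) and differed by -0.06 in term diff cells (limma adjusted p = 0.859). Bhlhe40 differed by 0.04 in term diff cells (limma adjusted p = 0.938) and by 0.03 in stem-like cells (limma adjusted p = 0.981). The markers of CD8 T cells moved with genotype as well: all 8 had a mean difference above 0 in Cd69-/- cells, with a median of 0.42, and none was called. Their part in the genotype values of the factors was not tested.

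Marker genes of other cells were either low or changed level with the subset, and some changed with the genotype too. The tumour and stroma sum was higher in Cd69-/- than in wild type libraries of each subset. The NK sum was higher in Cd69-/- than in wild type libraries in term diff cells only. Myeloid markers (10 genes with a row) summed to 3.04 to 6.16 FPKM in Cd69-/- term diff, 2.91 to 5.87 FPKM in wild type term diff, 7.57 to 8.54 FPKM in Cd69-/- stem-like and 6.28 to 7.83 FPKM in wild type stem-like libraries, where C1qa was at 0 in at least 1 library. CD4 and regulatory T cell markers (5 genes) summed to 9.99 to 11.6 FPKM in Cd69-/- term diff, 10.6 to 11.1 FPKM in wild type term diff, 21.9 to 23.9 FPKM in Cd69-/- stem-like and 21.2 to 21.8 FPKM in wild type stem-like libraries, with Foxp3 at 0.211 to 1.14 FPKM. NK markers (5 genes) summed to 35 to 36.6 FPKM in Cd69-/- term diff, 26 to 27 FPKM in wild type term diff, 14.3 to 18.2 FPKM in Cd69-/- stem-like and 17.4 to 21.7 FPKM in wild type stem-like libraries. Klre1 made up almost all of the NK sum, with Klra4 and Klra8 at 0 in some libraries and Ncr1 at no more than 0.375 FPKM. B cell markers (6 genes) summed to 0.132 to 1.12 FPKM over all libraries. Tumour and stroma markers (8 genes) summed to 178 to 183 FPKM in Cd69-/- term diff and 109 to 124 FPKM in wild type term diff libraries. They summed to 101 to 106 FPKM in Cd69-/- stem-like and 55.3 to 66.5 FPKM in wild type stem-like libraries. Most of this sum was Vim, with Pecam1 at 4.23 to 13.8 FPKM, Epcam at no more than 0.715 FPKM and Krt8 at 0 in some libraries. Vim and Pecam1 were the 2 genes kept. Averaged over genotypes, Vim was called higher and Pecam1 lower in term diff cells. In the CD4 list Il2ra reached the highest level, at 3.98 to 14.7 FPKM. In wild type, 1 of the 4 kept genes of that list was called higher and 2 lower in term diff cells. Eomes and Zeb2 moved between subsets in the direction of the myeloid and CD4 sums, and Prdm1 and Tbx21 in that of the NK sum, almost all Klre1. The part of such cells in the subset and genotype differences was not tested.

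The factors' patterns over the 8 libraries were compared by the root mean square difference of centred log2(FPKM + 1) profiles, where smaller is more alike. Among 28 pairs of members the closest were Bhlhe40 and Zeb2 at 0.158 and Tox and Runx3 at 0.215, and the farthest were Prdm1 and Eomes at 1.37. Among 4687 other genes with a mean of at least 5 FPKM, the closest to Prdm1 were Pik3ap1 at 0.163, a signalling adaptor, and Nedd9 at 0.169, a scaffold of cell adhesion. The SD of Prdm1's own profile was 0.816. The closest to Tbx21 were Obfc2a at 0.058 and the amino acid transporter gene Slc7a5 at 0.065 (own SD 0.418), and among the closest to Eomes was Zfp36l1 at 0.226 (own SD 0.628). Among the closest to Zeb2 was Slc5a3 at 0.060 (own SD 0.241), and the closest to Runx3 were Cdt1 at 0.057 and Fbxo9 at 0.074 (own SD 0.307). For Tox they were Adrm1 at 0.094 and Cdca7l at 0.116 (own SD 0.269), and for Bhlhe40 they were Fxr2 at 0.049 and Ssbp3 at 0.053 (own SD 0.149). Libraries share depth and scaling, so likeness here is a description of these 8 libraries.

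Relatives and partners of the factors were mostly level between subsets. Of 12 such genes listed, 11 had a row and 9 passed the filter, and 0 were called in either direction in the average over genotypes (limma), with 1 at an unadjusted p under 0.05 (33.9% of all genes). Their median difference was -0.03, against 0.02 for all genes. Cbfb, which encodes the partner subunit of Runx proteins, averaged 16.0 FPKM in term diff and 13 FPKM in stem-like cells, a difference of 0.29 (limma adjusted p = 0.0571). Zeb1, the relative of Zeb2, differed by -0.16, and the Blimp-1 relatives Prdm2 and Prdm4 differed by -0.13 and -0.17, none of which passed the test.

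Other effector and exhaustion factors moved in both directions. Of 18 listed, 16 were kept, 6 rose and 5 fell in term diff cells averaged over genotypes, with a median of 0.10, beside 10.5% of all genes called higher and 9.93% called lower. Id2, an inhibitor of E proteins, rose by 1.67 (limma adjusted p = 6.24e-05), and Ikzf3, an Ikaros family factor, by 1.40 (limma adjusted p = 7.65e-05). Rbpj, the DNA-binding mediator of Notch, rose by 1.04 and Irf8 by 0.85. Those that fell were Ikzf2, Batf, Stat4, Irf4 and Hif1a, with differences of -0.89, -0.86, -0.72, -0.60 and -0.60. Without both wild type libraries numbered 2, Irf4 no longer passed the test (-0.51, limma adjusted p = 0.0508). Of the 10 stem and progenitor factors, 8 fell and 0 rose, with a median of -1.03. The differences were -5.24 for Tcf7, -2.41 for Myb, -2.09 for Bcl6 and -1.54 for Bach2.

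Genes known from other work as targets of T-box factors were mostly higher in term diff cells, where Tbx21 was higher and Eomes lower. Of 16 listed, 14 were kept, 8 rose and 1 fell, with a median of 1.03. Of all genes, 10.5% were called higher and 9.93% lower averaged over genotypes, with a median of 0.02. Gzmb, which encodes granzyme B, averaged 339 FPKM in term diff and 37.7 FPKM in stem-like cells, and Ccl5, a chemokine gene, averaged 194 FPKM in term diff and 17.7 FPKM in stem-like cells. Prf1, which encodes perforin, rose by 1.82 and Ccl4 by 1.80. The target that fell was the chemokine receptor gene Cxcr3, with a difference of -0.91, and Ifng differed by 0.28 without passing the test (limma adjusted p = 0.116). Of 10 genes known as repressed by Blimp-1 or its relative Hobit, 8 were kept, 7 fell and 0 rose, with a median of -2.14. They include Ccr7 and Il7r, receptors of homing and of survival, with differences of -3.86 and -2.34. The list also holds Tcf7, Bcl6, Klf2 and Id3, which the stem list holds too, so the lists are not separate evidence.

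Of 13 residency symbols, which hold Cd244 also under its other name Cd244a, 12 had a row and 10 were kept. Of those kept, 6 rose and 2 fell, with a median of 0.775. Among all genes, 10.5% were called higher and 9.93% lower, with a median of 0.02. Cxcr6, Itga1 and Cd244, encoding a chemokine receptor, an integrin chain and a SLAM family receptor, rose by 2.09, 1.45 and 1.405, while Xcl1, a chemokine gene, fell, with a difference of -1.91. Cd69, the gene knocked out, was the other that fell: its difference was -0.27 in Cd69-/- cells (limma adjusted p = 0.377) and -0.93 in wild type cells (limma adjusted p = 0.0109). Of 10 inhibitory receptor genes all were kept, 3 rose and 2 fell, with a median of -0.01. Havcr2 and Entpd1, encoding TIM-3 and CD39, rose by 3.62 and 3.37, and Cd160 and Cd200 fell, with differences of -1.19 and -1.31. Pdcd1, encoding PD-1, differed by 0.31 and did not pass the test (limma adjusted p = 0.099). The subset change of these lists is thus larger for several effector genes than for Tbx21, at 0.82, or Tox, at 0.02, in the same libraries. Prdm1, at 1.58, and Eomes, at -1.02, changed more than Tbx21 and Tox. Itga1 and Cd244 were under 1 FPKM in stem-like cells, where the log2(FPKM + 1) scale understates a change. Their change is therefore not ranked against that of Prdm1.

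**Figure D4:**
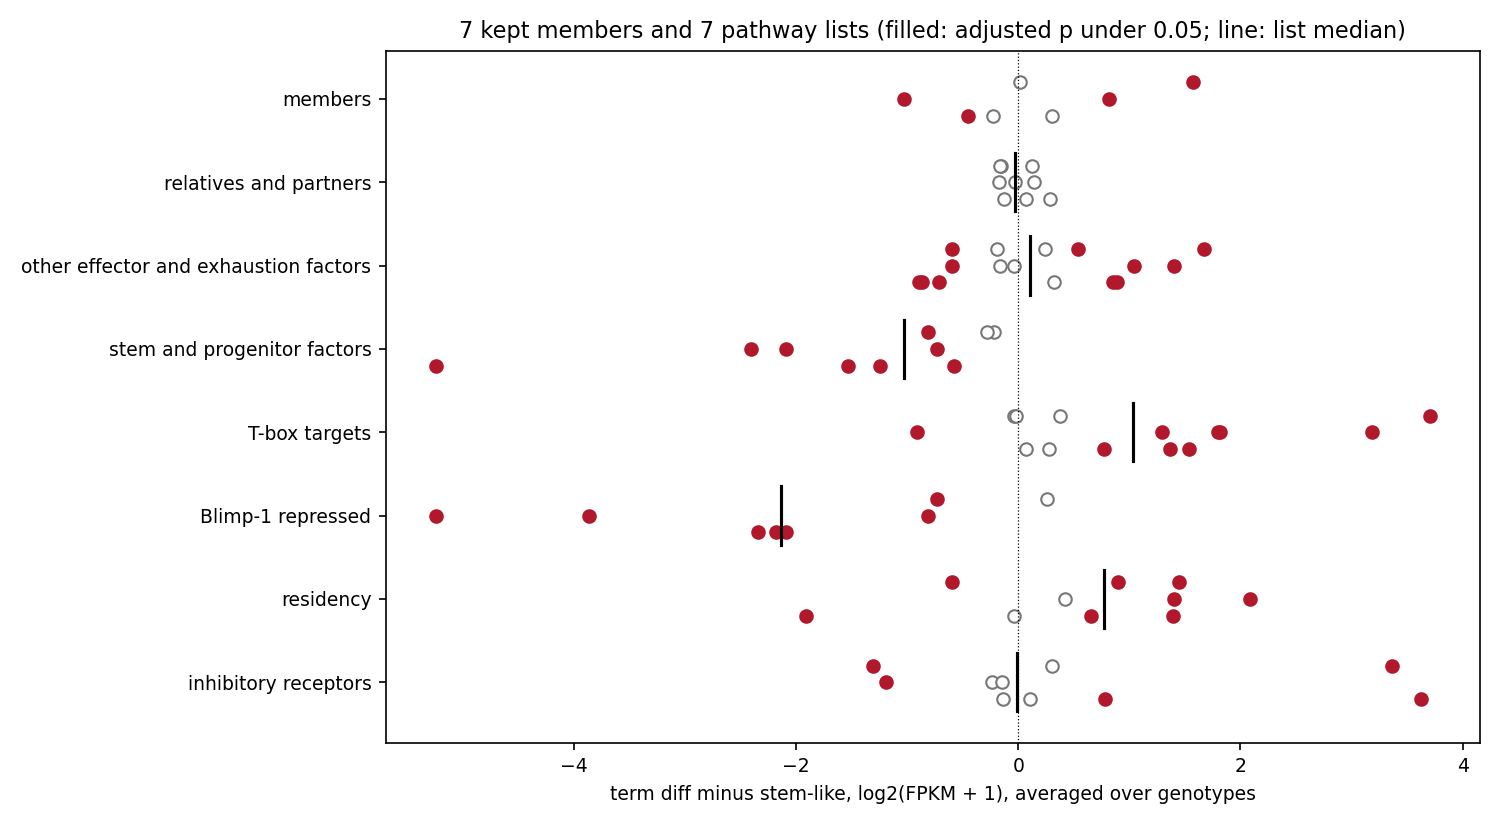
Difference in log2(FPKM + 1) between term diff and stem-like cells averaged over genotypes (x axis) for each gene of the 7 members tested and of 7 pathway lists (y axis), filled where the limma adjusted p was under 0.05, with a line at each pathway list's median. The members spread to both sides of 0, the stem and Blimp-1 repressed lists lie mostly below 0 and the T-box targets mostly above 0.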

How the data were processed

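The 8 deposited gene tables hold FPKM as the authors computed it, 1 table per library, each value with lower and upper confidence limits, also as FPKM. Per the labels' protocols, libraries were made from total RNA with a stranded low-input kit and read single-end on a NextSeq500. Per the submitters' processing notes, bcl2fastq 2.20, Bowtie2 2.3.4, TopHat 1.3.2, Cufflinks 2.2.1 and build mm10 were used. Annotation, strand setting and the total behind the FPKM are not given in the sources used here. Starts in the tables count from 0, and 1 was added.

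Groups followed the sample titles. Each table had 23746 rows, and 708 rows whose symbol was listed more than once were kept apart. Values of another status than OK, 5 in 3 rows, were left out. Values were used as log2(FPKM + 1) for the 9782 genes that reached 1 FPKM in 2 or more libraries. limma 3.58.1 under R 4.3.3 estimated 4 group means with a trended empirical Bayes prior (4 residual and 4.2 prior degrees of freedom). It gave 7 comparisons, with 2-sided p-values adjusted over those genes (Benjamini-Hochberg) and a threshold of 0.05. Implied fragments are the square of 2 times the FPKM over the distance to its upper limit. FPKM carries no read counts, so no count model was run. No pair of libraries of a group had identical values in the genes kept. The fitting was tested on simulated data.

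The members and all gene lists were chosen with earlier results of these data known. Named genes are the 8 members, Cd69, Tcf7 and Havcr2 as checks of the labels, up to 4 genes of each pathway list with the smallest p, and the 2 genes most like each member, of which 2 are not reported here. The remaining named genes of the lists, and Vim, Satb1, Il7r and Ikzf2 by genotype, were chosen after their values were seen. RefSeq promoters (GRCm38.p6) matched 6 of the 8 members, and those shown are the 3 whose windows hold no annotated exon. Alternatives covered the pseudocount, filter, scaling, prior, library weights, replicate block, the groups fitted, and leaving out libraries. Figures used matplotlib 3.10.9.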

Additional observations from a re-analysis of the deposited data

How the results depend on the processing

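Over 21 or 22 alternatives for each of 7 comparisons, the number of members called stayed within 1.5 times that reported in 143 cases and moved further in 8. The genotype comparisons and the interaction had 0 members called throughout, so all 8 moves lie in the subset comparisons. After rescaling each library to an equal FPKM sum, the number called was 0 in wild type, 0 in Cd69-/- and 1 (Prdm1) averaged over genotypes for term diff against stem-like. That scaling is set by the small RNA rows. It moved the median of all genes between genotypes, averaged over subsets, to -0.645 and the count of all genes called between subsets averaged over genotypes to 251, against 2001. Under it the genotype difference averaged over subsets was -1.27 for Tox, -0.37 for Prdm1, -0.765 for Bhlhe40 and -0.64 for Zeb2, and for Satb1 and Vim it turned to -0.067 and -0.009. Rescaling to an equal sum of the rows other than small RNA was chosen after seeing the data. For term diff against stem-like averaged over genotypes, it gave 761 genes called higher and 1043 lower, against 1030 and 971. With no filter, 2 members were called in Cd69-/-. Leaving out 1 library at a time gave 2 to 3 members called in wild type, 1 to 4 in Cd69-/-, 4 in every case averaged over genotypes and 0 in every genotype comparison and the interaction. The group left with 1 library is then assumed to vary like the others.

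Deviations of same-numbered libraries correlated over genes by -0.297 to 0.152 between groups, with 0.152 between the wild type subsets, whose libraries numbered 2 also shared a low share of small RNA, and no other pair above 0.089. The labels do not say what a number marks, so it was not used as a pairing. With the replicate number as a block, 2 members were called in wild type, 3 in Cd69-/-, 4 averaged over genotypes and 0 between genotypes. Direction was kept in all 21 alternatives for the subset differences of Prdm1, Tbx21, Eomes, Zeb2, Bhlhe40 and Runx3 averaged over genotypes, while for Tox, near 0, it was kept in 14. With a pseudocount of 5, which shrinks low genes, these calls held at 0.85 for Prdm1, -0.53 for Eomes and -0.28 for Zeb2. Depth limits Tox2, on 2 to 26 implied fragments, and Eomes in term diff cells. With 2 libraries a group, small differences between genotypes are not detectable here.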

Other observations

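Among the other transcription factors examined, a few were called between genotypes where the members were not. Irf8, an interferon regulatory factor, was lower in Cd69-/- cells averaged over subsets by 0.73 ± 0.09 on the log2(FPKM + 1) scale (SE, n = 4 and 4, limma adjusted p = 0.0145). It read 39 and 34.1 FPKM in Cd69-/- term diff, against 54.3 and 58.2 FPKM in wild type term diff, and 17.3 and 19.0 FPKM in Cd69-/- stem-like, against 32.6 and 34.4 FPKM in wild type stem-like libraries. The groups did not overlap within either subset. Ikzf2, which encodes the Ikaros family factor Helios, differed by -0.96 ± 0.11 (limma adjusted p = 0.0124). It read 2.01 and 1.69 FPKM in Cd69-/- term diff, against 3.69 and 5.31 FPKM in wild type term diff, and 4.02 and 4.39 FPKM in Cd69-/- stem-like, against 9.12 and 9.40 FPKM in wild type stem-like libraries. Every Cd69-/- library was thus below the wild type libraries of its subset. Over the 21 alternatives the direction was kept in all, and the call in 13 for Irf8 and 15 for Ikzf2. The call for Irf8 ended without wild type stem-like replicate 2, Cd69-/- stem-like replicate 1 or 2, wild type term diff replicate 2 or Cd69-/- term diff replicate 2 (limma adjusted p of 0.053 to 0.072). That for Ikzf2 ended without Cd69-/- stem-like replicate 1 or 2 or Cd69-/- term diff replicate 2 (limma adjusted p of 0.0551 to 0.0628).

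Satb1, a chromatin organiser of T cells, was higher in Cd69-/- cells by 0.70 ± 0.10 (limma adjusted p = 0.026), at 20.7 and 21.0 FPKM in Cd69-/- term diff, against 13.4 and 13.3 FPKM in wild type term diff libraries. It read 29.5 and 25.35 FPKM in Cd69-/- stem-like, against 13.6 and 17.4 FPKM in wild type stem-like libraries. Il7r, which encodes the IL-7 receptor, differed by 0.82 ± 0.14 (limma adjusted p = 0.0484), at 5.59 and 4.08 FPKM in Cd69-/- term diff, against 1.74 and 1.57 FPKM in wild type term diff libraries. In stem-like libraries Il7r read 23.7 and 21.9 FPKM in Cd69-/-, against 12.9 and 18.8 FPKM in wild type. The call was kept in 9 of 21 alternatives for Satb1 and in 6 for Il7r, and for each it ended without any 1 library other than wild type stem-like replicate 2. Vim, which encodes vimentin, was higher in Cd69-/- cells by 0.79 (limma adjusted p = 0.0219), a call kept in 10 of 21 alternatives and ended without any 1 library other than wild type stem-like replicate 2 or wild type term diff replicate 1.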
